A study of Mus musculus with 16 samples.

Results

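The genes G6pdx, Pgls, Pgd, Tkt, Taldo1, Me1, Idh1 and Idh2 encode enzymes of the pentose phosphate pathway and of the supply of NADPH. They were picked by name, and all 8 were found among the 24347 gene names of the first table and the 24421 names of each of the other tables. The pentose phosphate pathway branches off glycolysis at glucose 6-phosphate. Its oxidative arm makes NADPH and a pentose phosphate, and its non-oxidative arm exchanges sugar phosphates with glycolysis. NADPH gives the electrons with which cells reduce glutathione and thioredoxin and build fatty acids and sterols, and several of these genes are known targets of NRF2, the transcription factor of the oxidative stress response.

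RNA-seq had been run on E14Tg2a.IV, a line of mouse embryonic stem (ES) cells, kept feeder-free on gelatin with serum and LIF. The labels name the strain as C57BL/6, and a second line, CCE, is named in the growth protocol with no word on where it was used. The 16 libraries made up 8 groups of 2 in 3 tables, each normalised on its own, and values were tested only within a table. In the arsenite table, cells given 200 µM sodium arsenite, a thiol-binding stressor, for 2 h were set against untreated cells. In the Pml table, Pml-knockout cells were set against wild-type cells, neither with a treatment named. In the Trim33 table, cells labelled Trim33 knockout or wild type were given either 50 ng/ml activin A, which signals through SMAD2 and SMAD3, or 10 µM SB431542, which blocks the activin type I receptors, for 2 h. How many clones stand behind a knockout is not labelled, and nor is whether paired libraries came from different dishes. The p-values thus cover only the spread between these libraries, which may be technical.

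The targeted genes and the cell markers bear on how the groups can be read. Pml was at 32.0 and 33.5 FPKM in Pml-knockout cells, against 49.8 and 45.1 FPKM in wild-type cells, and the labels do not say which part of the gene was altered. Trim33 was at 2.53 and 2.79 RPKM in knockout cells with activin A, against 20.1 and 23.5 RPKM in wild-type cells. With SB431542 it went against the labels, at 18.3 and 24.6 RPKM in the libraries labelled Trim33 knockout, against 2.94 and 2.44 RPKM in those labelled wild type. The Y-linked gene Eif2s3y ran the same way, averaging 0.0325 RPKM in knockout cells with activin A, against 39.7 RPKM in wild-type cells, and 39.3 RPKM in the libraries labelled Trim33 knockout with SB431542, against 0.104 RPKM in those labelled wild type. The SB431542 libraries are therefore called by their labels only. All 8 ES cell markers, Pou5f1, Sox2 and Nanog among them, were detected in every group.

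Depth could be recovered from the low values of the arsenite and Trim33 tables, at 31200000 to 48500000 reads per library, so that 1 RPKM stands for 31.2 to 48.5 reads per kilobase of gene. The depth of the Pml table is unknown. Every one of the 8 genes passed the filter on low values in all 3 tables, and the lowest value of any was 5.66 RPKM, for Me1.

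The genes lie on 7 chromosomes of the mouse genome (GRCm38, the assembly named mm10 in the submitters' processing notes). In the oxidative arm, G6pdx encodes glucose-6-phosphate dehydrogenase, the first and committing step. It lies on chromosome X from 74409483 to 74429194, on the minus strand, with 13 exons in its longest coding transcript. Pgls encodes 6-phosphogluconolactonase and lies on chromosome 8 from 71592176 to 71601092, on the plus strand, with 5 exons. Pgd encodes 6-phosphogluconate dehydrogenase, the second step that makes NADPH, and lies on chromosome 4 from 149149991 to 149166771, on the minus strand, with 13 exons. In the non-oxidative arm, Tkt encodes transketolase and lies on chromosome 14 from 30548359 to 30574720, on the plus strand, with 14 exons. Taldo1 encodes transaldolase and lies on chromosome 7 from 141392199 to 141402968, on the plus strand, with 9 exons. Outside the pathway, Me1 encodes the cytosolic malic enzyme, which makes NADPH and pyruvate from malate, and lies on chromosome 9 from 86581371 to 86695953, on the minus strand, with 14 exons. Idh1 encodes the cytosolic and peroxisomal NADP-dependent isocitrate dehydrogenase and lies on chromosome 1 from 65158616 to 65186500, on the minus strand, with 9 exons. Idh2 encodes its mitochondrial counterpart and lies on chromosome 7 from 80094846 to 80115392, on the minus strand, with 11 exons.

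Start-site windows of 3 genes are shown because Me1 and Idh1 had the largest differences with arsenite and G6pdx those in the Trim33 table. Each runs from 250 bases before to 50 after a RefSeq start site (build GRCm38.p6), is printed 5′ to 3′ on the gene's own strand, and has in capitals the letters that match the core of the antioxidant response element, the site that NRF2 binds. The letters searched on both strands were TGACNNNGC and TGAGNNNGC, and those of a match can also hold the AP-1 motif TGACTCA.
Me1, chr9:86695865-86696164, minus strand: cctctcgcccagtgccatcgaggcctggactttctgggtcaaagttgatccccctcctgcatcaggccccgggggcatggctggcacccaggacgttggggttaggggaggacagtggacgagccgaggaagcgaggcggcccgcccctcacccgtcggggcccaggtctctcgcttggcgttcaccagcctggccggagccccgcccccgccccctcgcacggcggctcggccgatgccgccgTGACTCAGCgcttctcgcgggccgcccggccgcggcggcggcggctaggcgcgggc
Idh1, chr1:65186430-65186729, minus strand: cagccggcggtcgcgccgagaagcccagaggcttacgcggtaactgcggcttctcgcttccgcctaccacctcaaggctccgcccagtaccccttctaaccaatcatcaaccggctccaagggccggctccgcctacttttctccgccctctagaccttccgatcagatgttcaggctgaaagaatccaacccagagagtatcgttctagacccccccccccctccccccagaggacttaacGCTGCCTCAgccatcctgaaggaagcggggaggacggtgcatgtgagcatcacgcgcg
G6pdx, chrX:74428831-74429130, minus strand: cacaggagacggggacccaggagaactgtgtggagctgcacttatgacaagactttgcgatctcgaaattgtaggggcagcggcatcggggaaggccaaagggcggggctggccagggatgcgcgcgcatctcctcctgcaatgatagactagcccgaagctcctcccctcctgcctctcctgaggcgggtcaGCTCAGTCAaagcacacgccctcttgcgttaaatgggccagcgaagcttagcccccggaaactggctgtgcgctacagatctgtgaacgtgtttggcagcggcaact

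The Me1 match began at position -6 from the start site and read TGACNNNGC on the printed strand. The Idh1 match began at -8 and read TGAGNNNGC on the opposite strand, and the G6pdx match began at -57 and read TGACNNNGC on the opposite strand. RefSeq gave 11 windows for the 8 genes, and 6 of them held a match. Taldo1 and Idh2 each had a window with TGAGNNNGC and a second Pgd window held TGACNNNGC, while no match was found in the windows of Pgls and Tkt, in the other Pgd window or in the second windows of Me1 and Idh1. Over all 32851 windows of this length, 12.4% held TGACNNNGC, 17.6% held TGAGNNNGC and 27.8% held either. A match describes letters and not a bound site.

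Arsenite for 2 h was tested for its effect on these genes in the arsenite table. All 8 genes were called higher with arsenite than in untreated cells. The cytosolic enzymes outside the pathway, Me1 and Idh1, differed most, at 2.92-fold and 2.57-fold on the log2(value + 1) scale, and the oxidative arm's Pgd followed. Of all 12136 genes tested, 40.7% were called higher and 27.0% lower, at an adjusted p under 0.05 from limma. The median log2 difference was 0.39 over the 8 genes and 0.08 over all genes tested.

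In the oxidative arm, G6pdx was at 26.1 and 25.9 RPKM with arsenite, against 19.7 and 19.3 RPKM in untreated cells. Both arsenite libraries lay above both untreated ones, with a log2 difference of 0.40 ± 0.05 (SE; adjusted p = 0.000187, limma). Pgls was at 53.7 and 48.6 RPKM with arsenite, against 43.1 and 41.1 RPKM in untreated cells, a log2 difference of 0.27 ± 0.06 (adjusted p = 0.00334, limma). Pgd was at 98.9 and 103.7 RPKM with arsenite, against 66.8 and 65.3 RPKM in untreated cells. Its log2 difference was 0.61 ± 0.04 (adjusted p = 1.22e-05, limma), the third largest of the 8.

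In the non-oxidative arm, Tkt was at 127.6 and 130.3 RPKM with arsenite, against 102.6 and 104.5 RPKM in untreated cells, a log2 difference of 0.31 ± 0.04 (adjusted p = 0.000172, limma). Taldo1 was at 207.1 and 204.4 RPKM with arsenite, against 177.7 and 174.7 RPKM in untreated cells, a log2 difference of 0.22 ± 0.03 (adjusted p = 0.000876, limma). Taldo1 had the highest level of the 8 genes per length in both groups and the smallest log2 difference. Summed within a library, the RPKM of the oxidative genes G6pdx, Pgls and Pgd over that of Tkt and Taldo1 was 0.534 and 0.533 with arsenite, against 0.463 and 0.450 in untreated cells. This ratio does not depend on library scaling, and 2 libraries against 2 cannot reach a p under 0.05 in a permutation test, so it is given without one.

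Among the enzymes outside the pathway, Me1 was at 19.3 and 20.4 RPKM with arsenite, against 5.66 and 6.69 RPKM in untreated cells. Its log2 difference of 1.54 ± 0.08 (adjusted p = 3.91e-06, limma) was higher than 98.9% of those of all genes tested. Idh1 was at 78.9 and 82.5 RPKM with arsenite, against 30.8 and 30.8 RPKM in untreated cells. Its log2 difference of 1.36 ± 0.04 (adjusted p = 4.40e-07, limma) was higher than 98.2% of those of all genes. Idh2 was at 166.4 and 166.0 RPKM with arsenite, against 129.5 and 126.2 RPKM in untreated cells, a log2 difference of 0.38 ± 0.04 (adjusted p = 6.59e-05, limma). The cytosolic enzyme gained on the mitochondrial one, with a ratio of Idh1 to Idh2 RPKM of 0.474 and 0.497 with arsenite, against 0.238 and 0.244 in untreated cells.

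The size of the smaller differences depended on scaling. Dividing each library by its median ratio moved the median of all genes to -0.05, and Pgls at 0.13 (adjusted p = 0.085, limma) and Taldo1 at 0.08 (adjusted p = 0.127) then missed the threshold. The other 6 genes stayed higher under each scaling tried, and with quantile normalisation the Taldo1 difference was 0.36. The share of higher genes among all called was 44% with median-ratio scaling and 49% with quantile normalisation, against 60.1% on the deposited values. The Me1 value is uncertain in that 21.1% of its 50-base words also occur in Gm7049, which is not among the names of the tables. That of Pgls is uncertain in that exons of Fam129c on the same strand cover 20.6% of its exon bases.

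**Figure D1:**
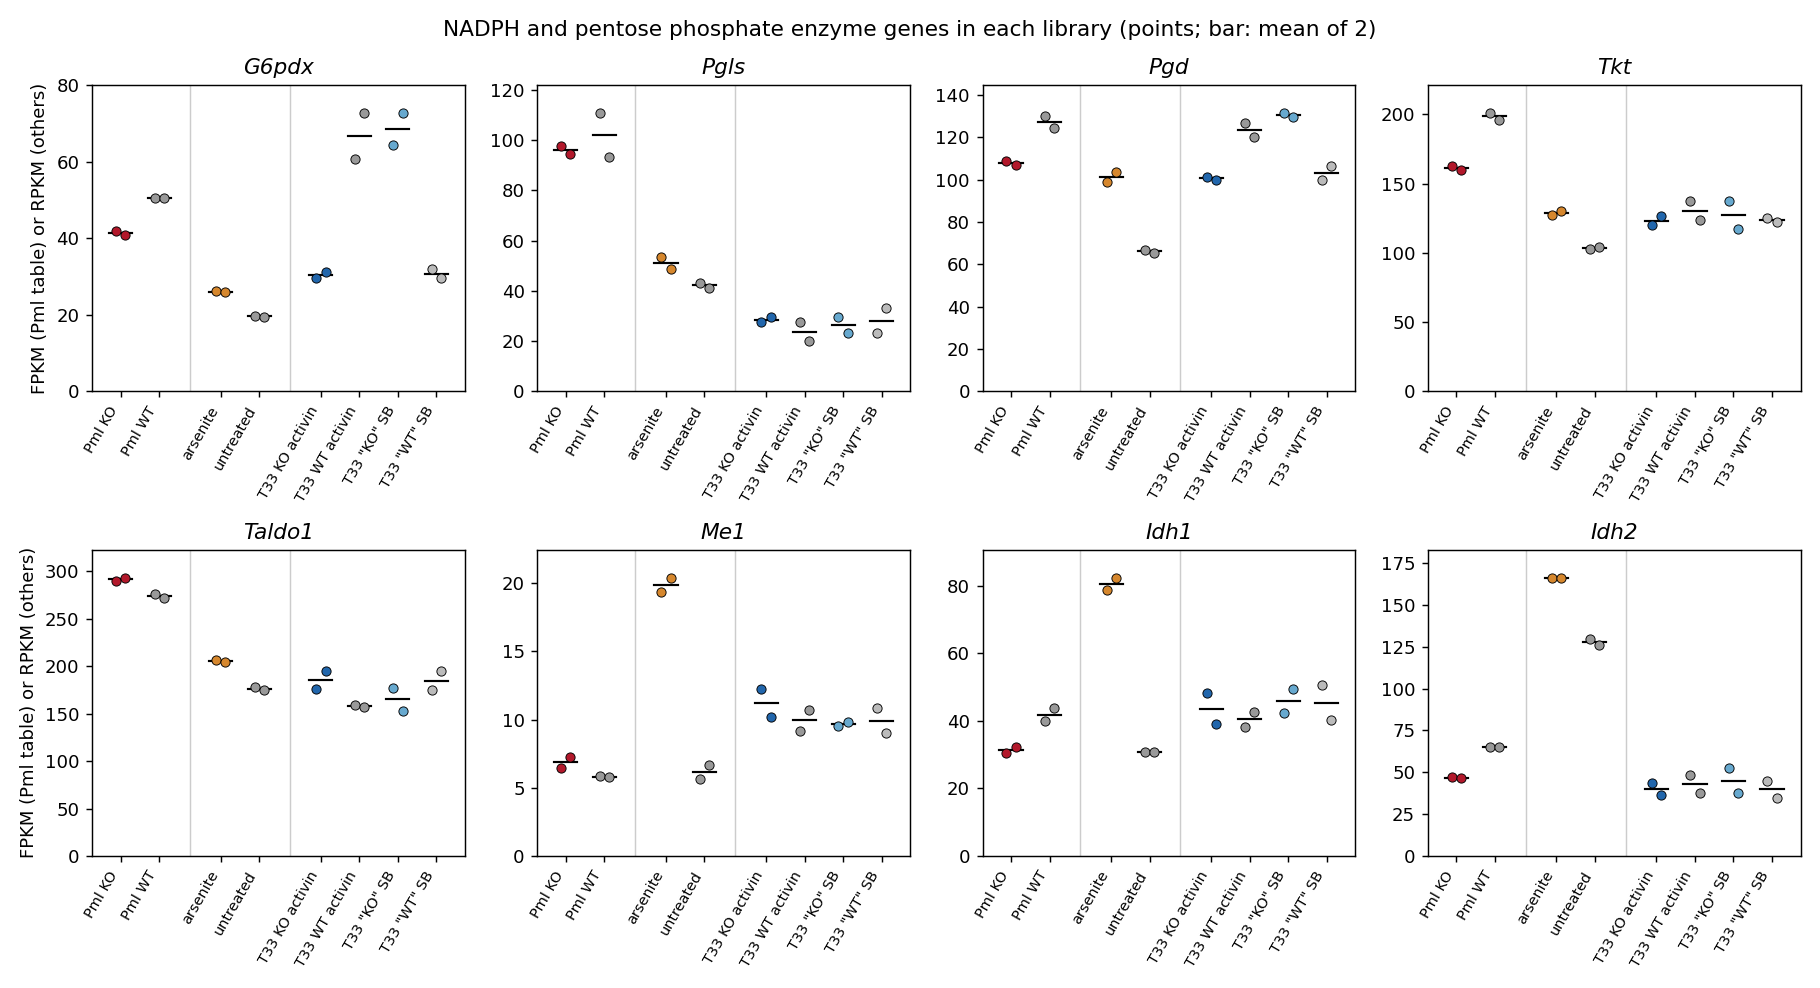
Level of each of the 8 genes (y axis, FPKM in the Pml table and RPKM in the others) in every library; points are libraries, bars the mean of 2, grey lines part the separately normalised tables, and T33 stands for the Trim33 table with labels in quotation marks where Trim33 goes against them. Me1 and Idh1 stand out with arsenite, at up to 20.4 and 82.5 RPKM, and G6pdx in the Trim33 table.

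**Figure D2:**
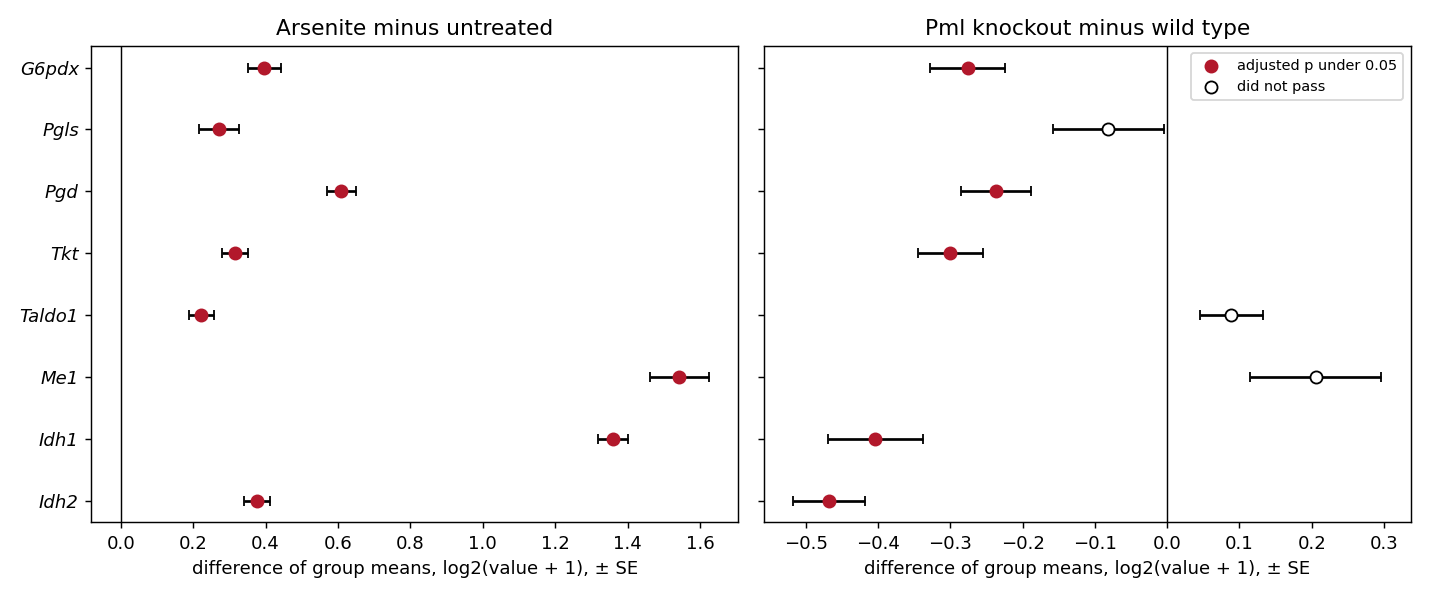
Difference of group means on the log2(value + 1) scale (x axis, ± SE, n = 2 libraries a group) for each gene, with filled points past an adjusted p of 0.05. All 8 genes lie above 0 with arsenite, between 0.22 and 1.54, and 5 of 8 pass below 0 in Pml-knockout cells, between -0.47 and -0.24.

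The other genes of these pathways did not all move with the 8. Of the other pentose phosphate genes, 5 of 9 tested were called higher and 3 lower with arsenite, where 40.7% of all genes were called higher and 27.0% lower. H6pd, which carries out the oxidative steps in the endoplasmic reticulum, averaged 9.50 ± 0.23 RPKM with arsenite and 3.70 ± 0.07 RPKM in untreated cells (SD, n = 2 each), a log2 difference of 1.16. Prps1 and Prps2 make phosphoribosyl pyrophosphate from ribose 5-phosphate. Prps2 rose by 0.71 and Prps1 fell by 0.62 on the log2 scale, and Tigar, a fructose bisphosphatase that diverts sugar into the pathway, fell by 0.28. With quantile normalisation 2 genes of this list were called higher and 3 lower.

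Of the list of other NADPH sources, NAD kinases and related folate enzymes, 4 of 11 were called higher and 4 lower with arsenite. These counts are near the shares over all genes of 40.7% and 27.0%. Aldh1l1, a cytosolic folate enzyme that makes NADPH, averaged 17.0 ± 0.16 RPKM with arsenite and 3.32 ± 0.20 RPKM in untreated cells, a log2 difference of 2.06. The mitochondrial folate enzyme Mthfd2 fell by 1.51 on the log2 scale, to 58.9 ± 0.20 RPKM with arsenite, against 169.3 ± 0.75 RPKM in untreated cells. Mthfd1, the cytosolic folate enzyme, rose by 0.51 and the glutamate dehydrogenase Glud1 by 0.58. With median-ratio scaling 3 genes of this list were called higher and 6 lower.

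Of the reductases that spend NADPH, 10 of 13 were called higher and 3 lower with arsenite, with a median log2 difference of 0.43. The quinone reductase Nqo1 averaged 30.4 ± 1.6 RPKM with arsenite and 4.35 ± 0.07 RPKM in untreated cells, a log2 difference of 2.55. The carbonyl reductase Cbr3 averaged 39.7 ± 1.1 RPKM with arsenite and 6.11 ± 0.35 RPKM in untreated cells, a log2 difference of 2.52. The biliverdin reductase Blvrb rose by 1.15 and the thioredoxin reductase Txnrd1 by 0.81 on the log2 scale.

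Of NRF2 and its regulators, 6 of 7 were called higher and 1 lower with arsenite, against 4 higher and 1 lower with median-ratio scaling and 5 higher and 1 lower with quantile normalisation. Bach1, a repressor at the same sites, rose by 1.42 and Keap1, which targets NRF2 for degradation, by 0.69, while the NRF2 relative Nfe2l1 fell by 0.59. Of the NRF2 targets outside NADPH supply, 7 of 10 were called higher and 1 lower, with a median log2 difference of 0.83. Gclm, a subunit of the glutathione-making ligase, rose by 1.91, the sulfiredoxin Srxn1 by 1.48, the ferritin chain Fth1 by 1.43 and the heme oxygenase Hmox1 by 1.35.

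Of 13 glycolytic enzymes tested, 3 were called higher and 8 lower with arsenite, with a median log2 difference of -0.69. With quantile normalisation 4 were called higher and 7 lower, with a median of -0.40. The hexokinase Hk2 fell by 1.23, the lactate dehydrogenase Ldha by 1.14, Pgk1 by 1.07 and Tpi1 by 1.04. Of 11 genes of the citrate cycle and citrate transport, 5 were called higher and 3 lower, near the shares over all genes of 40.7% and 27.0%, and the citrate carrier Slc25a1 fell by 0.86. With median-ratio scaling, 5 of the citrate cycle genes were called higher and 5 lower, and the median of that list changed sign to -0.08, against 0.06 on the deposited values. Cell markers moved with arsenite too: 7 of 8 ES cell markers were called lower and 1 higher, with a summed level of 2723 to 2837 RPKM with arsenite, against 5178 to 5248 RPKM in untreated cells. Of 6 trophectoderm markers tested, 6 were called higher, and the summed level of all 8 was 107.2 to 109.1 RPKM with arsenite, against 33.3 to 33.6 RPKM in untreated cells, with Elf5 at 0 in both arsenite libraries. Of 4 fibroblast markers tested 3 were called higher and 1 lower. All 8 summed to 159.3 to 161.8 RPKM with arsenite, against 68.1 to 68.5 RPKM in untreated cells, where Postn was at 0. Most of the sum was Vim, at 103.6 and 108.1 RPKM with arsenite, against 52.4 and 51.4 RPKM in untreated cells. Thy1 went the other way, at 1.84 and 2.78 RPKM with arsenite, against 4.51 and 4.04 RPKM in untreated cells. Among 4 primitive endoderm markers tested 3 were called higher and 0 lower, and among 3 neural progenitor markers 1 was called higher and 2 lower. Their part in the results was not tested, and in bulk libraries fewer cells of a type and less RNA per cell cannot be told apart.

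**Figure D3:**
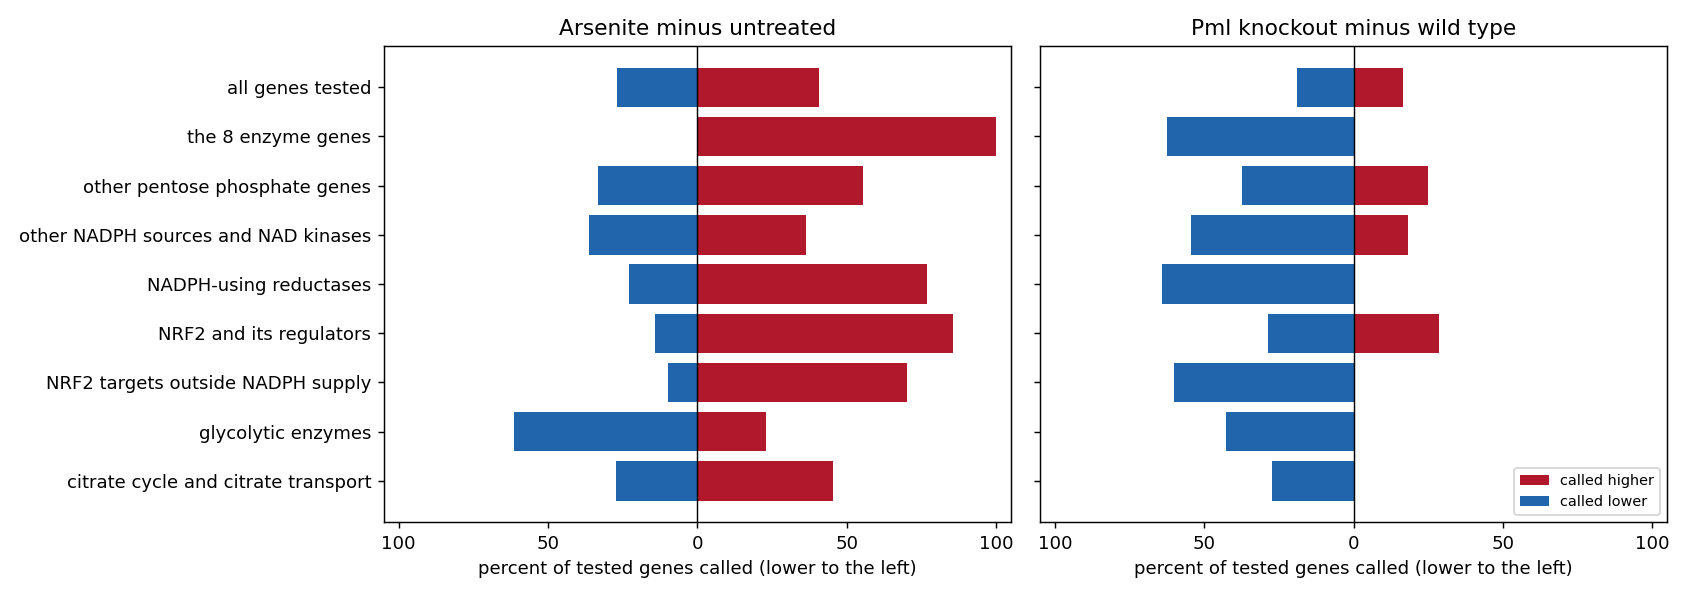
Share of tested genes called higher (red, right) and lower (blue, left) in each list, in percent, with all genes tested in the top row, for arsenite and for the Pml knockout. With arsenite 10 of 13 reductases were called higher, and in Pml-knockout cells 9 of 14 were called lower.

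The Pml knockout was compared with wild type in the Pml table. Of the 8 genes, 5 were lower in Pml-knockout cells and none was called higher, with G6pdx, Pgd, Tkt, Idh1 and Idh2 lower by 0.24 to 0.47 on the log2 scale. Idh2 differed most. Of all 11648 genes tested, 18.9% were called lower and 16.6% higher, and the median log2 difference was -0.26 over the 8 genes and -0.02 over all genes.

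In the oxidative arm, G6pdx was at 42.0 and 40.9 FPKM in Pml-knockout cells, against 50.4 and 50.4 FPKM in wild-type cells, a log2 difference of -0.28 ± 0.05 (adjusted p = 0.00412, limma). Pgd was at 108.9 and 106.7 FPKM in Pml-knockout cells, against 130.1 and 124.4 FPKM in wild-type cells, a log2 difference of -0.24 ± 0.05 (adjusted p = 0.00613, limma). Pgls was at 97.6 and 94.6 FPKM in Pml-knockout cells, against 110.9 and 93.3 FPKM in wild-type cells. The groups overlapped and the log2 difference was -0.08 ± 0.08 (adjusted p = 0.446, limma). The value depended on which wild-type library was kept: without wild-type replicate 2 it was -0.20, and without wild-type replicate 1 it was 0.04.

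In the non-oxidative arm, the genes went apart. Tkt was at 162.4 and 159.9 FPKM in Pml-knockout cells, against 201.1 and 196.1 FPKM in wild-type cells, a log2 difference of -0.30 ± 0.04 (adjusted p = 0.00132, limma). Taldo1 was at 289.8 and 293.6 FPKM in Pml-knockout cells, against 276.4 and 272.0 FPKM in wild-type cells. Its groups did not overlap, but the log2 difference of 0.09 ± 0.04 missed the threshold (adjusted p = 0.147, limma). The ratio of the oxidative to the non-oxidative genes within a library was 0.550 and 0.534 in Pml-knockout cells, against 0.610 and 0.573 in wild-type cells, and the ranges did not overlap.

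Outside the pathway, Idh1 was at 30.5 and 32.3 FPKM in Pml-knockout cells, against 39.9 and 43.9 FPKM in wild-type cells, a log2 difference of -0.40 ± 0.07 (adjusted p = 0.00204, limma). Idh2 was at 47.4 and 46.3 FPKM in Pml-knockout cells, against 65.2 and 65.1 FPKM in wild-type cells, a log2 difference of -0.47 ± 0.05 (adjusted p = 0.000214, limma). Me1 was at 6.43 and 7.29 FPKM in Pml-knockout cells, against 5.84 and 5.77 FPKM in wild-type cells. Both knockout libraries lay above both wild-type ones, with a log2 difference of 0.21 ± 0.09 that did not pass (adjusted p = 0.112, limma). The 5 genes called lower stayed past the threshold under each of the alternatives run.

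The reductases and the list of other NADPH sources, NAD kinases and related folate enzymes were also lower more often than higher in Pml-knockout cells. Of 14 reductases, 9 were called lower and 0 higher, with a median log2 difference of -0.25. Over all genes 18.9% were called lower and 16.6% higher. Cbr3 averaged 16.8 ± 0.74 FPKM in Pml-knockout cells and 35.3 ± 2.4 FPKM in wild-type cells (SD, n = 2 each), a log2 difference of -1.03. The glutathione reductase Gsr fell by 0.71, Blvrb by 0.66 and the carbonyl reductase Cbr1 by 0.58. Of that list of sources, kinases and folate enzymes, 6 of 11 were called lower and 2 higher. The mitochondrial folate enzymes Aldh1l2, Mthfd2 and Mthfd1l fell by 1.63, 1.02 and 0.64 on the log2 scale.

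Of the other pentose phosphate genes, 3 of 8 were called lower in Pml-knockout cells, H6pd at -0.72, Rpia, the ribose 5-phosphate isomerase, at -0.28 and Tigar at -0.26, and 2 were called higher, Prps2 at 0.47 among them. Of NRF2 and its regulators, 2 of 7 were called higher and 2 lower. Nfe2l2, which encodes NRF2 itself, fell by 0.29 and the small Maf protein gene Maff rose by 0.80. Of the NRF2 targets outside NADPH supply, 6 of 10 were called lower and 0 higher. The cystine carrier gene Slc7a11 fell by 0.95, Hmox1 by 0.66, Fth1 by 0.52 and Gclm by 0.27. Of the glycolytic enzymes 6 of 14 and of the citrate cycle genes 3 of 11 were called lower, and none was called higher. The shares over all genes were 18.9% lower and 16.6% higher.

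Other differences ran along with the Pml knockout. Eif2s3y averaged 0.927 FPKM in Pml-knockout cells and 18.4 FPKM in wild-type cells. Of the trophectoderm markers 7 of 7 tested were called higher, with a summed level of 640.0 to 656.9 FPKM in Pml-knockout cells, against 32.1 to 33.7 FPKM in wild-type cells. Most of the knockout sum was Krt8, at 315.4 and 330.3 FPKM, and Krt18, at 278.9 and 282.1 FPKM. Elf5, at 0.06 and 0.11 FPKM in Pml-knockout cells, was under the filter on low values and was not tested. Of 7 fibroblast markers tested 6 were called higher and 1 lower, with a summed level of 534.9 to 564.5 FPKM in Pml-knockout cells, against 106.1 to 107.6 FPKM in wild-type cells, where Postn was at 0. Of 8 ES cell markers 3 were called lower. Among 3 primitive endoderm markers tested 2 were called lower and 0 higher, and among 2 neural progenitor markers 1 was called higher and 1 lower. Their part in the results was not tested.

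In the Trim33 table the question was whether loss of Trim33, activin signalling or both altered the genes. G6pdx was the 1 gene of the 8 that was called with activin A, and it was lower in Trim33-knockout cells than in wild-type cells. Its level was 29.5 and 31.2 RPKM in knockout cells, against 60.7 and 72.7 RPKM in wild-type cells. The groups lay far apart, with a log2 difference of -1.10 ± 0.13, or 0.465-fold (adjusted p = 0.00243, limma). Of all 11914 genes tested, 2.82% were called lower and 6.61% higher. The difference stayed between -1.23 and -0.98 under the alternatives run, with an adjusted p of at most 0.0319.

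The second dehydrogenase of the oxidative arm gave a smaller value of the same sign. Pgd was at 101.4 and 99.6 RPKM in Trim33-knockout cells with activin A, against 126.9 and 119.9 RPKM in wild-type cells. The groups did not overlap, but the log2 difference of -0.29 ± 0.11 did not pass (adjusted p = 0.117, limma). Pgls, Taldo1, Me1 and Idh1 had log2 differences of 0.27, 0.23, 0.16 and 0.10, and Tkt and Idh2 of -0.08 and -0.10, none of which passed.

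With SB431542, G6pdx was at 64.4 and 72.8 RPKM in the libraries labelled Trim33 knockout, against 31.8 and 29.6 RPKM in those labelled wild type. The log2 difference was 1.13 ± 0.13 (adjusted p = 0.00204, limma), where 3.01% of all genes were called higher and 6.55% lower. Pgd was at 131.5 and 129.6 RPKM in the libraries labelled Trim33 knockout, against 100.0 and 106.4 RPKM in those labelled wild type, a log2 difference of 0.34 ± 0.11 that did not pass (adjusted p = 0.0811, limma). Like Trim33 itself, G6pdx was thus lower under the knockout label with activin A and higher under it with SB431542. The other 6 genes had log2 differences of -0.16 to 0.16 and none was called.

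By label, the knockout minus wild-type difference was not the same in the 2 treatments for G6pdx and Pgd. The difference of the differences was -2.24 ± 0.18 for G6pdx (adjusted p = 0.000142, limma) and -0.63 ± 0.15 for Pgd (adjusted p = 0.0153, limma), where 10.1% of all genes were called lower and 16.1% higher. The share of higher genes among all called in this contrast was 61.5% on the deposited values and 49.5% with quantile normalisation. For Pgd it no longer passed when either library of either activin A group, or replicate 1 of the libraries labelled wild type with SB431542, was left out, at -0.59 to -0.67 with an adjusted p of 0.0513 to 0.0716. Trim33 and the Y-linked gene Eif2s3y also go against the SB431542 labels, with values of -5.23 and -10.5 in this contrast. The contrast is thus given by label only. It cannot tell a gene that goes with the level of Trim33 from one whose genotype effect depends on treatment. Whether labels were exchanged was not tested.

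The mean of the activin A groups minus the mean of the SB431542 groups does not depend on which SB431542 group carries which genotype label. None of the 8 genes was called in it, with log2 differences between -0.11 and 0.10 and adjusted p of 1.00 in limma. Over all genes 13 were called higher (0.109%) and 0 lower.

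Within a library, the ratio of G6pdx to Pgd RPKM was 0.291 and 0.314 in knockout cells with activin A, against 0.478 and 0.606 in wild-type cells. It was 0.489 and 0.561 in the libraries labelled Trim33 knockout with SB431542, against 0.318 and 0.278 in those labelled wild type. Over all 8 libraries G6pdx had a range of 29.5 to 72.8 RPKM and Pgd of 99.6 to 131.5 RPKM. The other genes ranged from 117.4 to 137.4 RPKM for Tkt, 152.8 to 195.1 RPKM for Taldo1, 19.96 to 33.2 RPKM for Pgls, 8.98 to 12.2 RPKM for Me1, 38.2 to 50.5 RPKM for Idh1 and 34.7 to 52.4 RPKM for Idh2.

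**Figure D4:**
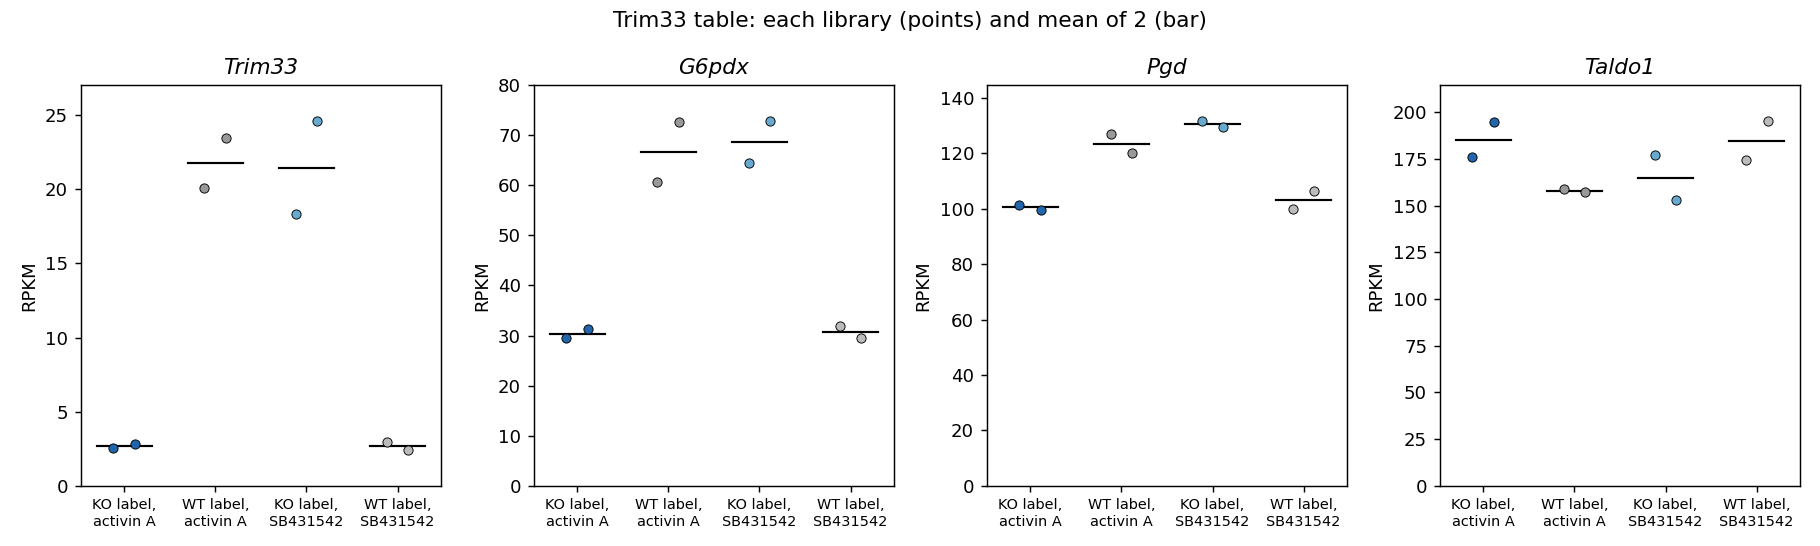
Levels (y axis, RPKM) of Trim33, G6pdx, Pgd and Taldo1 in the 8 libraries of the Trim33 table, by genotype label and treatment; points are libraries and bars the mean of 2. G6pdx lies at 29.5 and 31.2 RPKM under the knockout label and at 60.7 and 72.7 RPKM under the wild-type label with activin A, and at 64.4 and 72.8 RPKM under the knockout label and 31.8 and 29.6 RPKM under the wild-type label with SB431542.

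Reads of neighbouring genes could touch the G6pdx value. Exons of Ikbkg, on the opposite strand, cover 418 bases or 13.6% of the exon bases of G6pdx, and the sources used here do not say whether reads were counted by strand. Ikbkg was at 2.06 and 2.11 RPKM in knockout cells with activin A, against 3.20 and 3.30 RPKM in wild-type cells. How far its reads enter the G6pdx value was not tested. G6pd2, a retrogene copy that shares 6.46% of the 50-base words of G6pdx, was listed at 0 in every library but 1. A listed 0 is a weak guide here, since Eno1, the glycolytic enolase that all cells use, was also listed at 0 throughout the arsenite table and at most at 0.0722 RPKM in the Trim33 table.

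The related lists are given with activin A, where 2.82% of all genes were called lower and 6.61% higher. Of the list of other pentose phosphate genes, 3 of 8 were lower in knockout cells and 1 was higher. Pgm2, a sugar phosphate mutase whose place in the pathway was not checked, was lower by a log2 difference of -0.88. Prps1 was at -0.63 and Prps2 at -0.61, and the higher gene, Tigar, was at 0.54. Of the reductases 2 of 13 were lower, Cbr3 at -1.32 and Txnrd1 at -0.56, and 1 was higher, Nqo1, at 0.58. Of the other NADPH sources, NAD kinases and related folate enzymes 2 of 10 were lower, Mthfd2l at -0.99 and the transhydrogenase Nnt at -0.61, and 0 were higher. Of NRF2 and its regulators 2 of 7 were lower, Maff at -0.80 and Nfe2l2 at -0.57, and of the NRF2 targets 2 of 9, Srxn1 at -0.98 and the glutathione ligase subunit Gclc at -0.61. Of the glycolytic enzymes 4 of 13 and of the citrate cycle genes 1 of 11 were lower.

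Some markers of other cell types were also called in the Trim33 table. With activin A, 1 of 7 trophectoderm and 1 of 6 fibroblast markers tested were called higher and 0 lower. Their median log2 differences were 0.41 and 0.56, and over all genes 6.61% were called higher and 2.82% lower. Of 3 neural progenitor markers 1 was called lower and 0 higher, with a median of -0.52, and of 2 primitive endoderm markers 0 were called. Trophectoderm markers summed to 150.9 to 216.6 RPKM in knockout cells with activin A, against 117.4 to 162.0 RPKM in wild-type cells, and fibroblast markers to 216.0 to 356.2 RPKM in knockout cells, against 221.6 to 249.9 RPKM in wild-type cells, so both sums overlapped. With SB431542 the median log2 differences were -0.36 and -0.35, with 1 trophectoderm marker called lower. In the contrast of label by treatment, 3 of 7 trophectoderm and 3 of 6 fibroblast markers were called higher, against 2 and 1 with quantile normalisation. Over all genes 16.1% were called higher in it and 10.1% lower. No marker of these lists was at 0 in both libraries of a group. Of 8 ES cell markers 1 was called higher with activin A and 2 lower with SB431542. Their part in the G6pdx and Pgd results was not tested.

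By their pattern over the 16 libraries, centred within each table, the genes most like G6pdx among 10868 were Hnrnpll, Glmn and Sepp1, with Pearson's r of 0.98, 0.97 and 0.97. For Pgd they were Cbr3, Pfkm and Tmem57 (0.96, 0.96 and 0.95), and for Tkt they were Esam, Rpusd1 and Psmf1 (0.95, 0.93 and 0.92). For Me1 they were Shtn1, Slc27a3 and Pm20d1 (0.98, 0.98 and 0.97), and for Idh1 they were Decr2, Uaca and Zscan29 (0.97, 0.96 and 0.95). For Pgls they were Akr7a5, Aprt and Grasp (0.93, 0.87 and 0.85), for Taldo1 Ddrgk1, Gas6 and Klk8 (0.95, 0.95 and 0.94), and for Idh2 Sf3b4, Scpep1 and Slc25a31 (0.94, 0.94 and 0.94). These r values describe libraries that share groups and tables and carry no test.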

How the data were processed

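Total RNA of 16 ES cell libraries was prepared with an Illumina TruSeq kit, per the labels. Build mm10 and the tools featureCounts 2.0.1, Bowtie2 2.3.3, DESeq2, SAMtools 1.9 and FastQC 0.11.5 are named, with no roles, in the submitters' processing notes. The authors deposited FPKM values for the Pml table and RPKM values for the arsenite table. The Trim33 table names no unit, and its deposited score behaves as RPKM, since single-exon genes fall on whole reads within 0.05 reads for 90.5% to 94.7% of values under 20 reads in both tables. The untreated columns differ by a letter from the sample titles and were taken as the untreated group left in that table.

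Values were tested as log2(value + 1) with limma 3.58.1 in R 4.3.3 (intensity trend, two-sided, Benjamini-Hochberg over all tested genes, called at adjusted p under 0.05), for genes at 1 or more in at least 2 libraries. This scale understates the change of low genes, and 27 date-like or repeated names per table were left out. Residual degrees of freedom were 2 in the Pml and arsenite fits and 4 in the Trim33 fit of 4 group means. No 2 libraries of a group held identical values, and each counted as 1 replicate. The fits were tested on simulated data. Alternatives were another pseudocount (0.1), no filter, median-ratio scaling, quantile normalisation, no trend, a replicate block and leaving out each library. The activin A libraries alone were added after seeing the data. The 8 genes and the 12 lists beside them were chosen with earlier results of these data known. Named genes are the 8, checks of the labels, up to 4 genes of a list with the smallest p, and the 3 genes most alike in pattern. Genes overlapping or resembling the 8 and genes of chromosome X were added after values were seen. Coordinates are from GENCODE annotation and start-site windows from RefSeq.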

Additional observations from a re-analysis of the deposited data

Results flagged for a closer look

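By label, the knockout minus wild-type difference was not the same with activin A and with SB431542 for 2 of the 8 genes. Both were called lower, where 10.1% of all 11914 genes tested were called lower and 16.1% higher. For G6pdx the difference of the log2 differences was -2.24 (adjusted p = 0.000142, limma), with the libraries labelled Trim33 knockout below those labelled wild type with activin A and above them with SB431542. For Pgd it was -0.63 (adjusted p = 0.0153, limma), in the same directions, and this call was lost when some single libraries were left out. Trim33 itself had a difference of -5.23 in this contrast and the Y-linked gene Eif2s3y of -10.5. The contrast thus cannot tell a gene that goes with the level of Trim33 from one whose genotype effect depends on treatment. Whether labels were exchanged was not tested.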

How the results depend on the processing

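Of 608 recomputed values for the 8 genes, 567 kept their direction and side of the threshold, and 0 of those called on the deposited scale changed sign. Beyond Pgls and Taldo1 with arsenite under median-ratio scaling, Pgls in the Pml table and Pgd in the label-by-treatment contrast, no call of the 8 was gained or lost.

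Deviations of same-numbered libraries from their group means had a correlation of 0.02 in the Pml table. In the Trim33 table it was 0.60 between knockout cells with activin A and libraries labelled wild type with SB431542. Between wild-type cells with activin A and libraries labelled Trim33 knockout with SB431542 it was 0.37. The other pairs of groups had -0.14 to 0.21, and whether the numbers mark paired samples was not settled. The replicate block changed no call of the 8, and it called 4324 genes in the Pml table, against 4130 without it, 1584 against 1123 with activin A, and 23 against 13 for activin A against SB431542. No block was fitted for arsenite, because the untreated columns, although numbered, do not match the titles of the numbered samples. With no filter on low values the last contrast called 8 genes. The activin A libraries alone called 1852 genes, with G6pdx at -1.10.

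Leaving out 1 library moved the genes called to 185 to 1546 with activin A, 294 to 1036 with SB431542, 7 to 16 for activin A against SB431542 and 1853 to 3395 for label by treatment, where 1 to 2 of the 8 genes stayed lower. Uncalled values changed sign on leaving out 1 library. Their ranges were -0.20 to 0.0421 for Pgls in the Pml table, and with activin A -0.0434 to 0.25 for Idh1 and -0.28 to 0.0778 for Idh2. With SB431542 they were -0.34 to 0.17 for Pgls, -0.0744 to 0.15 for Tkt, -0.15 to 0.0972 for Me1, -0.14 to 0.18 for Idh1 and -0.0714 to 0.40 for Idh2. For activin A against SB431542 they were -0.0927 to 0.0360 for G6pdx, -0.18 to 0.0721 for Pgls, -0.0404 to 0.0711 for Tkt, -0.0801 to 0.0263 for Taldo1 and -0.15 to 0.0901 for Idh2, and for label by treatment -0.0740 to 0.24 for Idh1. Median-ratio scaling gave 0.0149 for Me1 with SB431542 and -0.00304 for Idh1 by label and treatment, and quantile normalisation gave 0.00781 for Me1 with SB431542. The cause was not tested. The share of higher genes among those called with activin A was 57.9% with quantile normalisation, against 70.1%, and with SB431542 41.7%, against 31.5%. Precision is limited by the 2 libraries in each group, since limma borrows a gene's spread in part from other genes, and the depth of the Pml table is unknown.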

Other observations

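The enzyme genes called lower in Trim33-knockout cells with activin A included each X-linked gene of the metabolic lists that was tested, a grouping chosen after values were seen and given without a test. The 5 X-linked genes tested were G6pdx, Prps1, Prps2, Pgk1 and Idh3g, and 5 were called lower, against 12 of the 74 on other chromosomes. A further X-linked gene of the lists, Tktl1, was under the filter on low values and was not tested. Prps1 averaged 64.1 ± 1.7 RPKM in knockout cells and 99.7 ± 0.21 RPKM in wild-type cells (SD, n = 2 each). Pgk1, the phosphoglycerate kinase, averaged 305.4 ± 16.4 RPKM in knockout cells and 464.6 ± 3.0 RPKM in wild-type cells. Idh3g, a subunit of the NAD-dependent isocitrate dehydrogenase, averaged 90.2 ± 1.7 RPKM in knockout cells and 126.8 ± 1.0 RPKM in wild-type cells.

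With SB431542 the same 5 genes were called higher in the libraries labelled Trim33 knockout, against 11 of 74 on other chromosomes. In the Pml knockout, 2 of the 5 were called lower and 1 higher, and with arsenite 3 were called lower and 2 higher. Over the whole of chromosome X, 34 of 415 genes tested (8.19%) were called lower and 56 higher with activin A. On the autosomes 289 (2.61%) of 11080 were called lower and 697 higher. The median log2 difference with activin A was -0.09 on chromosome X and 0.01 on the autosomes, and G6pdx had the sixth lowest value of the 415. With SB431542, 36 of the 415 were called higher and 53 lower (12.8%), against 310 higher and 688 lower (6.21%) on the autosomes. In the Pml knockout, 111 of 386 genes of chromosome X were called higher and 36 lower (9.33%), against 1750 higher and 2101 lower of 10843 on the autosomes. With arsenite, 148 of 388 were called higher and 106 lower.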
